A study of Mus musculus with 21 samples.

Results

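Small nucleolar RNA genes were described across 21 whole-transcript microarrays of mouse epididymal fat. The genes were taken by symbol from the array's annotation. A gene was included if a probe named it alone and its symbol began with Snora, Snord or Scarna, while the Snhg host genes were left out. Where several probes named one gene, the probe was selected on its mean level over all arrays, the brightest standing for the gene, which mattered for 3 genes. No difference between groups entered the rule, although the genes were proposed with results of these data known. This gave 59 genes of the 16248 in the table, made up of 36 Snord (box C/D), 19 Snora (box H/ACA) and 4 Scarna (Cajal body) genes on 15 chromosomes. A further 18 symbols occurred only on probes shared between several symbols and were not included.

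Small nucleolar RNAs are short noncoding RNAs that guide chemical modification of other RNAs. Box C/D RNAs pair with a target and direct 2′-O-methylation by fibrillarin, and box H/ACA RNAs direct pseudouridylation by dyskerin. Most targets are ribosomal RNA in the nucleolus, and the Cajal body RNAs act on spliceosomal small nuclear RNAs. A few members, such as the U8 and U17 RNAs, are needed for cutting the ribosomal RNA precursor rather than for modifying it. In mammals most of these genes lie in introns of a host gene, and the RNA is trimmed from the spliced intron. Host genes are often ribosomal protein or translation factor genes, or noncoding Snhg transcripts whose spliced exons have little coding content.

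The mice were male C57BL/6J, 4 weeks old on arrival and singly housed. After 1 week on chow they were fed for 12 weeks. Fat supplied 10% of the energy in the normal diet (ND group) and 40% in the high-fat diet (HFD group). Mice of the remaining groups ate the high-fat diet, to most of which a supplement was added by weight: 0.3% Bacillus coagulans, a spore-forming bacterium (BC), 0.3% steamed grain (SMG), or fermented mixed grain at 0.3% (L_FMG) or 0.9% (H_FMG). The remaining group, coded RMG, is labelled as fed the high-fat diet, and the treatment text does not describe what the code stands for. Each group had 3 arrays, numbered as in the labels, and p-values measure the spread between these arrays. Levels are the deposited log2 values of a probe, so a difference of 1 is a 2-fold difference. Probes differ in how they bind, so the level of one probe against another does not rank the amounts of 2 RNAs.

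Of the 59 genes, 56 lay within the span of another gene in the RefSeq annotation, regardless of strand, and 48 of these had a host that was itself measured. Snord89, Snord118 and Scarna2 lay in no other gene. Several hosts held more than 1 member. The noncoding gene Snhg12 held Snora16a, Snora44, Snora61 and Snord99, and Snhg3 held Snora73a and Snora73b. The nucleolin gene Ncl held Snora75 and Snord82. The host of Snord104 was the long noncoding gene Gm36220. The promoters of Gm36220, Snhg12 and Snhg3 are shown because these 3 genes host 4 of the 9 RNAs that were lower on the high-fat diet (below). The windows run from 250 bases before to 50 bases after the annotated start in RefSeq GRCm38.p6, and the first 2 are on the plus strand and the third on the minus strand. Capitals mark the E-box CACGTG, which reads the same on both strands, and a run of at least 5 C or T letters beginning at the start base.
Gm36220, chr11:106500665-106500964: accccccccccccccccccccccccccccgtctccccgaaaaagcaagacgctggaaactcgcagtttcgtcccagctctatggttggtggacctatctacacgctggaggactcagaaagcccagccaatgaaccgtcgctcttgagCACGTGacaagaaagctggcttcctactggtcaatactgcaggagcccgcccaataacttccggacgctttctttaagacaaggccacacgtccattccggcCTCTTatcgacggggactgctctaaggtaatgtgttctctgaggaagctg
Snhg12, chr4:132308428-132308727: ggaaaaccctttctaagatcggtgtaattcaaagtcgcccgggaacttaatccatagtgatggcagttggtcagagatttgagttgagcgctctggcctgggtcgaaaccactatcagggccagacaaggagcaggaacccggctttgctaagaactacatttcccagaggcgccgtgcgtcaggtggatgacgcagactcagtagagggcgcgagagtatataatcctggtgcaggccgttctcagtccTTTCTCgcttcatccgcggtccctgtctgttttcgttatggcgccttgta
Snhg3, chr4:132353637-132353936: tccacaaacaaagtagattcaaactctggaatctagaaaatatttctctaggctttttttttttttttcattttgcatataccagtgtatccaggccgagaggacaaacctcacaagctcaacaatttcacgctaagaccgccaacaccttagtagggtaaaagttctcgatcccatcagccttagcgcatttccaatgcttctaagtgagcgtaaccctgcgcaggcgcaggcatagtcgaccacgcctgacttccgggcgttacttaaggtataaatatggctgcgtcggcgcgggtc
The Gm36220 window held CACGTG 102 bases before the start and a start run of 5 letters, the Snhg12 window held a start run of 6 letters only, and the Snhg3 window held neither. Over the hosts of all members, 36 of 48 had a window, and 9 of their 40 windows (22.5%) held CACGTG, against 7.15% of all 32851 windows. A start run of at least 5 letters was present in 12.5% of the host windows and in 4.44% of all windows. These are matches of letters and were not tested as binding or initiation sites.

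The tissue label was checked first. The fat cell genes Adipoq, which encodes adiponectin, and Fabp4, a fatty acid carrier, were measured at 8.68 to 9.80 and 11.98 to 12.32 on all arrays. The 3 measured epididymis duct markers averaged 3.03 to 3.64 and the 5 measured sperm markers 5.39 to 6.50, the highest on array 9 of the RMG group. Array medians over all probes were 4.23 to 4.39. The values of every array differed from those of every other.

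The small nucleolar RNAs were highest on 4 arrays, which are given before the comparisons. Each gene's level was set against its own median over the 21 arrays, and the median of these differences over the 59 genes was taken for each array. ND array 9 had the highest value, 0.78, with 56 of 59 genes above their own median. L_FMG array 10 followed with 0.56 and 52 genes, H_FMG array 8 with 0.29 and 50 genes, and H_FMG array 6 with 0.23 and 52 genes. The other 17 arrays lay between -0.24 (RMG array 9) and 0.03. RMG array 9 was thus about as far below 0 as H_FMG array 6 was above it. On RMG array 9, SMG array 5 and HFD array 7 only 9 genes were above their own median. The shift on ND array 9 was larger for box H/ACA genes (median 1.13) than for box C/D genes (0.68). Over all 16248 genes the medians stayed within 0.02 of 0 on every array.

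**Figure D1:**
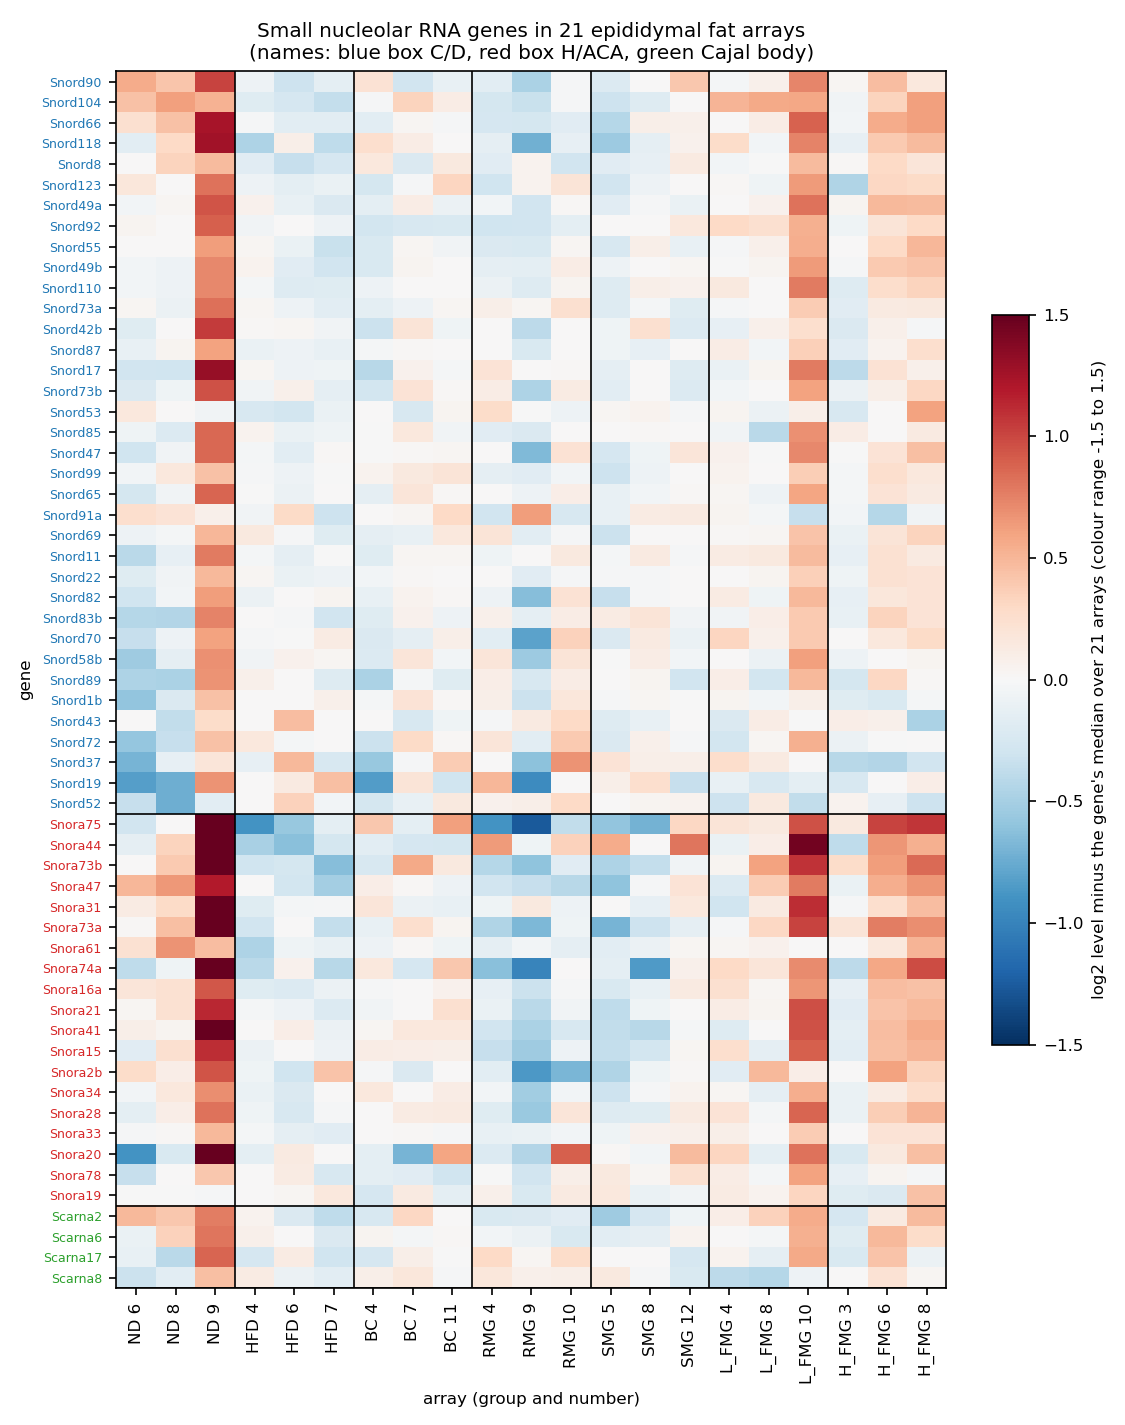
Levels of the 59 small nucleolar RNA genes (rows, by class and by HFD minus ND change) on 21 arrays (columns, by group), as log2 level minus the gene's median over the arrays, with values beyond 1.5 shown in the end colour. ND array 9 and L_FMG array 10 are red over nearly all rows, and H_FMG arrays 6 and 8 are red in most.

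**Figure D2:**
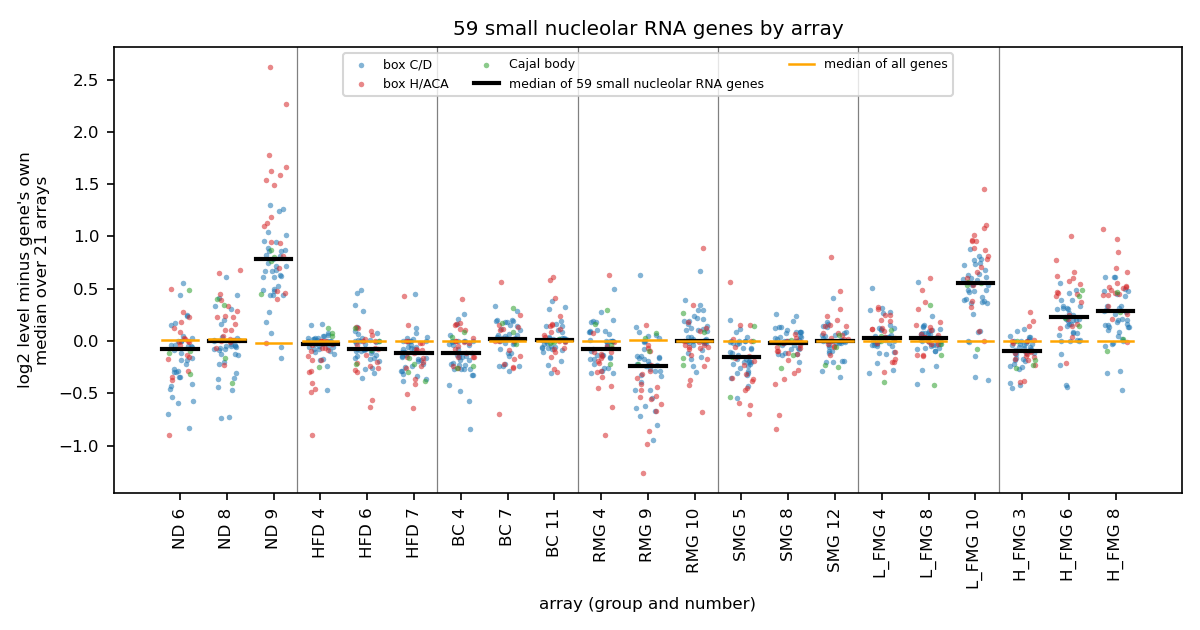
Each point is 1 of the 59 genes on 1 array, as log2 level minus its own median over 21 arrays; black bars are medians of the 59 genes and orange bars medians of all genes. The black bar is at 0.78 on ND array 9 and at 0.56 on L_FMG array 10, while the orange bars stay near 0.

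Within the ND group, array 9 exceeded the mean of arrays 6 and 8 for 55 of the 59 genes (93.2%), against 44.8% of all genes. The median difference was 0.84, with a range from -0.15 to 2.76. Snora75, which guides pseudouridylation of ribosomal RNA, was at 7.26 and 7.54 on ND arrays 6 and 8 and at 10.16 on array 9. That difference of 2.76 was the largest of all 16248 genes, and Snora20 and Snora31 were also among the 10 largest. In all, 12 of the 59 genes (20.3%) were among the 100 largest. The shift was not uniform: 5 genes, Snord104, Snora61, Snora19, Snord53 and Snord91a, differed by less than 0.2. L_FMG array 10 exceeded the other L_FMG arrays for 54 genes (91.5%, against 46.4% of all genes), with a median of 0.55. In H_FMG it was array 3 that differed from the other arrays, lying below them for 55 genes with a median difference of -0.36.

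Several other measures moved with these arrays. The 4 arrays also had the lowest SD over all probes, 1.823 on ND array 9 and 1.905, 1.906 and 1.917 on H_FMG array 8, L_FMG array 10 and H_FMG array 6, against 1.921 to 2.019 on the rest. The small structured RNAs Rnu3a and Rpph1 were highest on the same 4 arrays. Rnu3a, the U3 box C/D RNA needed for processing of the small ribosomal subunit RNA, was at 7.68 and 8.02 on ND arrays 6 and 8 and at 10.20 on array 9. It reached 9.37 on L_FMG array 10 and 8.77 and 8.59 on H_FMG arrays 6 and 8, and was at 6.76 to 8.24 on the other 15 arrays outside ND. Rpph1, the RNA of ribonuclease P, was at 11.43, 11.59 and 12.12 in ND, at 12.03 on L_FMG array 10 and at 11.97 and 12.00 on H_FMG arrays 6 and 8. The 340 microRNA genes shifted less, with a median of 0.12 on ND array 9, and the 36 measured hosts had a median of -0.14 there. The 5 measured fat cell markers averaged 10.23 on ND array 9 against 10.59 and 10.63 on the other ND arrays, and the 8 macrophage markers averaged 8.82 against 8.44 and 8.43. The part of any of these in the shift of the small nucleolar RNAs was not tested.

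The shared shift was also visible in how the genes varied within groups. The pooled SD within groups had a median of 0.303 over the 59 genes and 0.181 over all genes. It was widest for Snora75 (0.740) and Snora20 (0.661). After removal of group means, the correlation between 2 small nucleolar RNAs over the 21 arrays had a median of 0.718 over 1711 pairs, and 94.0% of pairs were above 0. Without ND array 9 the median was 0.547. The 17 pairs within the same host had a median of 0.807, or 0.693 without ND array 9. These correlations share the arrays and their normalization and are a description only.

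The first comparison asks how the high-fat diet without a supplement differed from the normal diet. In HFD, 9 of the 59 genes were lower than in ND and none was higher, by limma with Benjamini-Hochberg adjustment over all 16248 genes and a threshold of 0.05. The 9 made up 15.3% of the genes. Over all genes 8.63% passed, 2.09% as lower and 6.54% as higher. The 9 were Snord104, Snora61, Snora47, Scarna2, Snord90, Snord8, Snora73b, Snord66 and Snora16a. Among the 59 genes 50 had a change below 0 (84.7%, against 55.9% of all genes), and the median change was -0.29, against -0.04. In 16 genes every HFD array lay below every ND array (background 13%), and in 2 every HFD array lay above (background 15.7%).

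By class, box C/D genes had 4 of 36 lower with a median change of -0.23. Of the box H/ACA genes 4 of 19 were lower, 18 had a change below 0 and the median was -0.57. Of the 4 Cajal body genes, Scarna2 was lower and the median was -0.33. The class medians include ND array 9, on which box H/ACA genes shifted most.

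Snord104 guides methylation of ribosomal RNA. Its levels were 8.40, 8.57 and 8.48 on ND arrays 6, 8 and 9 and 7.77, 7.70 and 7.59 on HFD arrays 4, 6 and 7. The groups did not overlap, and the gap between them was wider than the range within either. The change was -0.80 ± 0.13 (SE, n = 3 arrays a group; limma adjusted p = 0.00327). ND array 9 was the middle of the 3 ND arrays for this gene, and the change without it was -0.80 (limma adjusted p = 0.00228). Snord104 passed in each of the 21 fits that left out 1 array, with limma adjusted p from 0.000844 to 0.0306. Only the fits without an ND or HFD array could alter the change itself, the others altering only the shared spread.

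Snora61, a box H/ACA RNA from Snhg12, was at 5.76, 6.21 and 6.00 in ND and at 5.08, 5.47 and 5.42 in HFD. Again the groups did not overlap and ND array 9 was in the middle. The change was -0.67 ± 0.13 (SE, n = 3; limma adjusted p = 0.00488), and it also passed in each of the 21 fits without 1 array (0.00265 to 0.0306). Here too, only the fits without an ND or HFD array could alter the change itself. Of the other RNAs of the same host, Snora16a fell by 0.61 on the log2 scale, and Snora44 and Snord99 had changes of -1.11 ± 0.40 and -0.22 that did not pass (limma adjusted p = 0.0848 and 0.273).

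Snora47 was at 7.28, 7.44 and 7.97 in ND and at 6.78, 6.50 and 6.28 in HFD, a change of -1.04 ± 0.24 (SE, n = 3; limma adjusted p = 0.0101). Scarna2 guides modification of the U2 small nuclear RNA. It was at 7.79, 7.70 and 8.07 in ND and at 7.35, 7.08 and 6.92 in HFD, a change of -0.74 ± 0.17 (limma adjusted p = 0.0118). In both genes ND array 9 was the highest array, and ND arrays 6 and 8 alone still lay above all 3 HFD arrays. Without ND array 9 the changes were -0.84 (limma adjusted p = 0.0433) for Snora47 and -0.63 (0.0434) for Scarna2. Both lost the call without HFD array 6 or HFD array 7.

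The other 5 genes lost the call without ND array 9. Snord90 was at 5.33, 5.19 and 5.79 in ND and at 4.70, 4.47 and 4.63 in HFD (change -0.84 ± 0.21, limma adjusted p = 0.0146). Snord8, which guides modification of the U6 small nuclear RNA, was at 8.70, 9.03 and 9.17 in ND and at 8.52, 8.35 and 8.45 in HFD (-0.53 ± 0.15, limma adjusted p = 0.0313). Snord66 was at 8.12, 8.32 and 9.12 in ND and at 7.86, 7.72 and 7.72 in HFD (-0.75 ± 0.23, limma adjusted p = 0.0454). All 3 had ND array 9 as the highest array.

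Snora73b is a copy of the U17 RNA, which acts in cutting of the ribosomal RNA precursor. It was at 6.79, 7.19 and 8.46 in ND and at 6.50, 6.53 and 6.15 in HFD (-1.09 ± 0.31, limma adjusted p = 0.0348). Its neighbour Snora73a, in the same host, had a change of -0.89 that did not pass (limma adjusted p = 0.0628). The 2 genes are close copies, so the separation of their signals is uncertain. Snora16a was the last gene inside the threshold, at 9.16, 9.21 and 9.92 in ND and 8.79, 8.78 and 8.90 in HFD (-0.61 ± 0.19, limma adjusted p = 0.0466). The first gene outside it was Snord52, with a difference in the other direction. It was at 3.80, 3.41 and 3.98 in ND and 4.15, 4.48 and 4.10 in HFD (0.51 ± 0.17, limma adjusted p = 0.0583). The probe of Snord52 was dim, with levels near or under the array medians of 4.23 to 4.39. The largest difference of all belonged to Snora75, at -1.31 ± 0.51, which did not pass (limma adjusted p = 0.107) and was -0.39 without ND array 9.

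**Figure D3:**
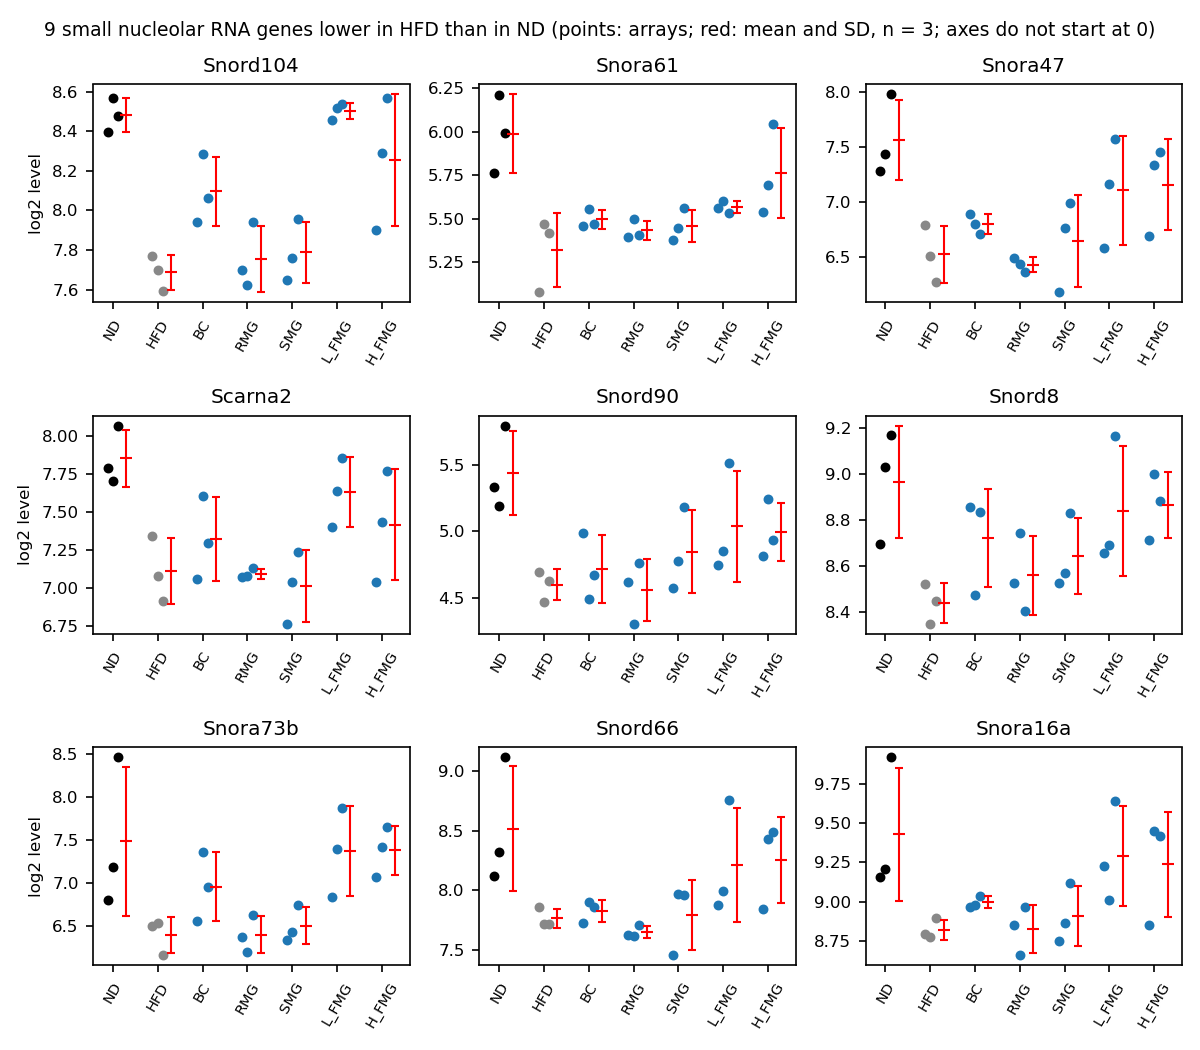
Log2 levels on each array (points) of the 9 genes lower in HFD than in ND, by group, with the group mean and SD (red, n = 3); the axes do not start at 0. Snord104 is at 8.40 to 8.57 in ND and 7.59 to 7.77 in HFD, while Snora73b, Snord66 and Snora16a each have 1 high ND array.

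Leaving out ND array 9 changed the picture for the genes as a group. The median change moved from -0.29 to -0.07, near the median of all genes in the same fit (-0.05), and 25 of 59 genes then had a change above 0. Without it 6 genes passed, against 8.38% of all genes in that fit. Of the 9, 4 stayed lower (Snord104, Snora61, Snora47 and Scarna2), 5 were lost (Snora16a, Snora73b, Snord66, Snord8 and Snord90), and Snord52 and Snord1b passed as higher (0.64 ± 0.18 and 0.43 ± 0.13, limma adjusted p = 0.0296 and 0.0372). Leaving out HFD array 6 left 2 calls (Snord104 and Snora61), HFD array 7 left 3 (those and Snord90), HFD array 4 left 5, and ND array 6 gave 15. The adjustment runs over all genes, so these counts move with the calls over all genes, whose shares are not given here. For Snora61 the unadjusted limma p was 5.2e-05 with all arrays and 6.33e-05 without HFD array 6. Its limma adjusted p was 0.00488 and 0.0306. With the 4 arrays of lowest SD left out together, 7 genes were lower and 2 higher, where 10.4% of all genes passed. The 7 were all among the original 9 (Snora73b and Snord8 were lost). Of the arrays left out, only ND array 9 enters the HFD minus ND change, so each change equals that without ND array 9. The L_FMG and H_FMG arrays altered only the shared spread. The set was chosen after seeing the data, so the 7 calls do not show a firmer change.

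**Figure D4:**
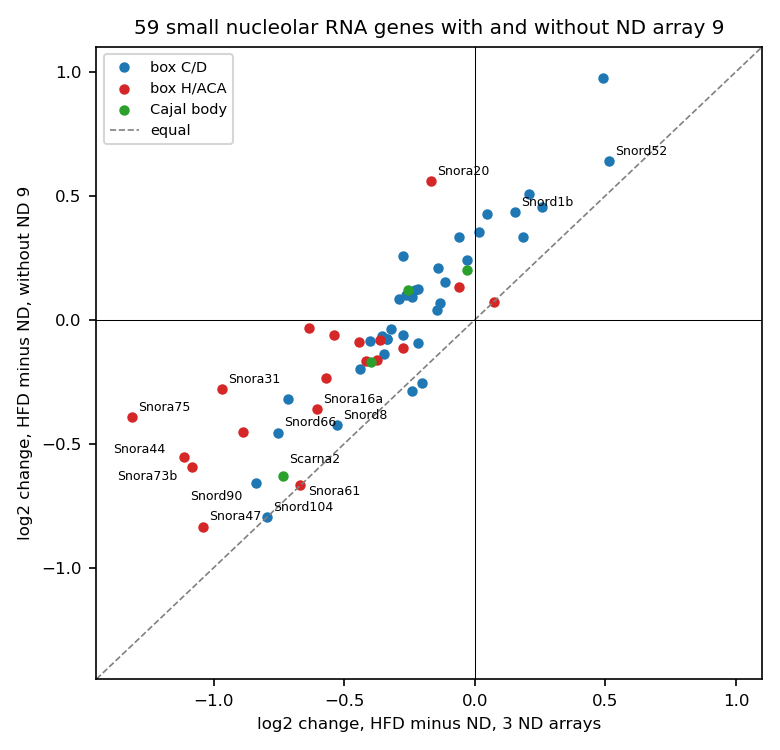
Log2 change (HFD minus ND) of each of the 59 genes with 3 ND arrays (x) and without ND array 9 (y), coloured by class, with the dashed line marking equal values. Snord104 and Snora61 lie on the line at -0.80 and -0.67, whereas Snora75 moves from -1.31 to -0.39 and Snora20 crosses 0.

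The host genes did not show the same differences. In 49 pairs of a small nucleolar RNA and a measured host (36 distinct hosts), 36 pairs had the RNA with a change below 0 and the host above 0, and 6 had both below 0. A host with several RNAs enters once for each, and Snord87 enters with both Mcmdc2 and Snhg6. Hosts were taken by span on either strand. The counts include ND array 9, whose difference from the other ND arrays had a median of 0.84 over the 59 RNAs and -0.06 over the hosts. The median change over hosts was 0.11. Over all genes 6.54% passed as higher and 2.09% as lower. By limma at the same threshold 5 hosts were higher in HFD: Snx5, a sorting nexin (0.98 ± 0.19, adjusted p = 0.00494), Haus6 (0.77, 0.0144), Gnl3, the nucleostemin gene (0.52, 0.0201), Eef1b2, a translation factor (0.36, 0.0448), and Nop58 (0.42, 0.0490), and none was lower. Their RNAs Snord17, Scarna8, Snord19, Snord69, Snora41, Snord11 and Snord70 did not pass in either direction. For the genes that fell, the hosts Snhg12, Snhg3, Zbed3, Rc3h2 and Chd8 had changes of 0.05, 0.01, -0.10, 0.08 and 0.04, none past the threshold. The probe of Snhg12 was dim, at 4.28 to 4.89 on all arrays, near the array medians of 4.23 to 4.39. Whether so dim a probe would follow a change was not tested. The hosts of Snord104 and Snord66 were not measured.

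**Figure D5:**
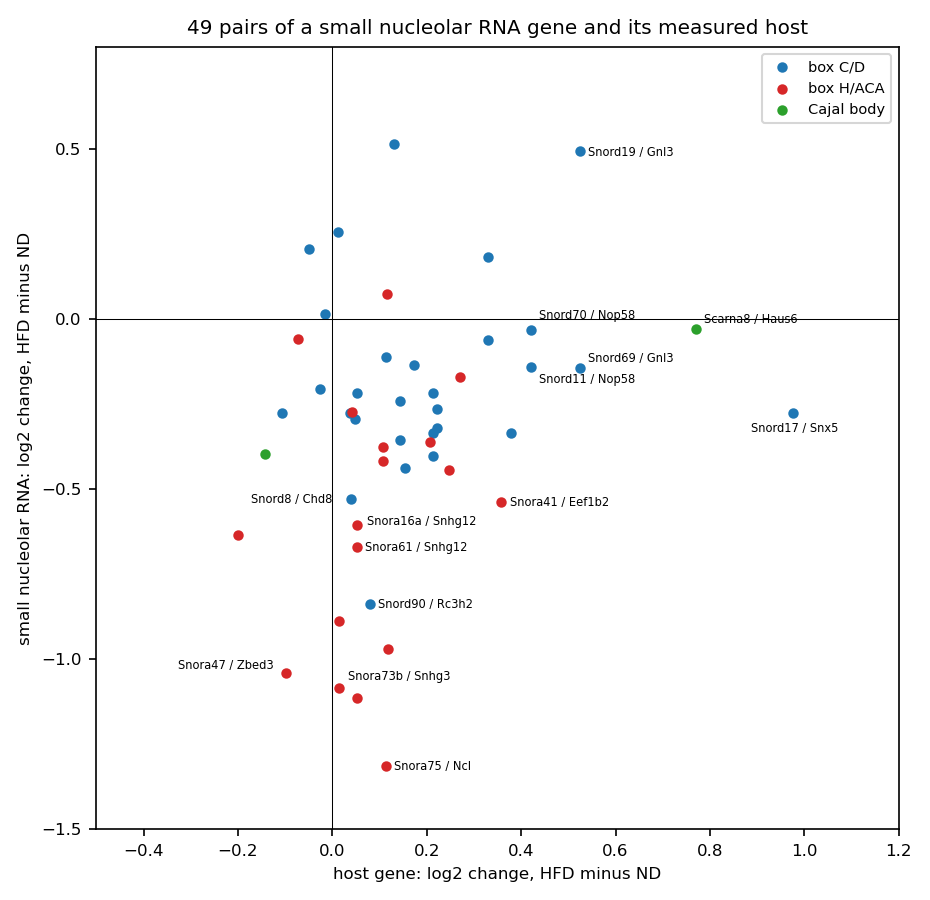
Log2 change (HFD minus ND) of 49 pairs of a measured host (x) and its small nucleolar RNA (y), coloured by the class of the RNA; pairs where either passed the threshold, and Snora75, are named. The RNAs reach down to -1.31 while hosts of the lowest ones stay near 0, and Snx5 (0.98) and Haus6 (0.77) lie far to the right.

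The proteins of the small nucleolar ribonucleoproteins were examined in the same comparison. Of 9 listed core proteins 6 were measured, and Nop58, a core protein of the box C/D particle, was higher in HFD while none was lower (median change 0.30). Nop56 was 0.38 ± 0.13 and Gar1, of the box H/ACA particle, 0.35 ± 0.17, neither passing (limma adjusted p = 0.0763 and 0.199). Of 11 assembly and Cajal body proteins Tcof1 was higher (0.52 ± 0.13, limma adjusted p = 0.0153), and Coil, the coilin gene that marks Cajal bodies, was -0.41 (0.0655). None of 5 trimming and debranching genes or of 12 ribosomal RNA transcription genes passed. Of 18 ribosomal RNA processing genes 2 were higher, Utp15 (0.48, limma adjusted p = 0.0299) and Rrp12 (0.45, 0.0389), and none was lower. Of 16 noncoding host genes Snhg15 was higher (0.66) and Snhg11 and Snhg17 were lower (-0.73 and -0.74).

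Other small RNAs were compared in the same way. Of 8 measured, 2 were lower in HFD, with a median change of -0.44. These were Rpph1 (-0.76 ± 0.22, limma adjusted p = 0.038) and Rnu11, a small nuclear RNA of the minor spliceosome (-0.60 ± 0.17, 0.0366). Rnu3a had the widest difference, -1.32 ± 0.47, and did not pass (0.0853). Rn7sk, the 7SK RNA that restrains transcription elongation, was at 12.40 to 12.57 on all arrays, with a change of -0.05. Of 340 microRNA genes 9 were lower and 2 higher, with a median change of -0.12.

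Cell type markers also differed between these groups. Of 8 macrophage markers 7 were higher in HFD, and the mean level of the 8 was 9.43 to 9.54 on HFD arrays against 8.43 to 8.82 on ND arrays. Of 6 fibroblast markers 4 were higher and none was lower. Of the 5 fat cell markers measured, Plin4, a lipid droplet protein, was lower (-0.70), and the mean of the 5 was 10.14 to 10.35 in HFD and 10.23 to 10.63 in ND. In whole tissue, fewer cells of a type and less RNA per cell cannot be told apart. The part of these markers in the changes of the small nucleolar RNAs was not tested.

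The second comparison set the mean of the 6 high-fat groups against ND. In it 6 of the 59 genes were lower and none higher, where 10.1% of all genes passed, 2.89% as lower and 7.25% as higher. They were Snora61 (-0.48 ± 0.10, limma adjusted p = 0.00459), Snord104 (-0.47 ± 0.10, 0.00641), Scarna2 (-0.59 ± 0.13, 0.00838), Snora47 (-0.79 ± 0.18, 0.00941), Snord90 (-0.64 ± 0.16, 0.0126) and Snord66 (-0.60 ± 0.18, 0.0329). This comparison shares the ND and HFD arrays with the first. The median change over the 59 genes was -0.20, and 49 were below 0 (83.1%, against 53.9% of all genes). Without ND array 9 the median was 0.055, Snora61 and Snord104 remained lower, and Snord1b, Snord52 and Snord83b were higher. Without ND array 8 the number that passed was 3, and Snora61 and Snord104 were among those lost (limma adjusted p = 0.0587 and 0.0506). Without ND array 6 the number was 14 and without L_FMG array 10 it was 11. These counts too move with the calls over all genes. In this comparison Tcof1 and 6 of 18 ribosomal RNA processing genes were higher, among them Rrp12 (0.48, limma adjusted p = 0.00466) and Nop2 (0.44, 0.0123).

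A moderated F test over all 7 groups called 5 of the 59 genes, where it called 6.47% of all genes. They were Snord104 (limma adjusted p = 0.00359), Scarna2 (0.0207), Snora61 (0.023), Snora47 (0.0271) and Snora73b (0.0464). Snord104 and Scarna2 passed in each of the 21 fits that left out 1 array. The number called was 2 without ND array 8 or RMG array 4, 3 without HFD array 6 or 7 or RMG array 9 or 10, and 8 without H_FMG array 3. The calls over all genes also move between these fits.

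The third set of comparisons asks whether the other high-fat groups differed from HFD, the RMG code being undescribed. By limma at an adjusted p of 0.05, none of the 59 genes differed from HFD in BC, RMG, SMG, L_FMG or H_FMG, and none differed between H_FMG and L_FMG. Over all genes 0.00615% passed in H_FMG, a single gene, and 0% in the others. At an unadjusted p under 0.05 there was 1 of the 59 genes in each of BC, RMG, SMG and the dose comparison, against 5.18%, 2.82%, 1.85% and 3.91% of all genes. There were 12 in L_FMG and 12 in H_FMG, all higher than in HFD, against 3.64% and 6.15% of all genes higher at that level. Without L_FMG array 10 the number in L_FMG was 3, and the share of all genes in that fit is not given here. The comparisons with HFD share the HFD arrays.

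In L_FMG 54 of the 59 genes had a change above 0 (91.5%, against 51.2% of all genes), with a median of 0.27 against 0.00 over all genes. For 20 genes every L_FMG array lay above every HFD array (background 7.3%). Without L_FMG array 10, which stood apart, the median was 0.11. Snord104 was at 8.46, 8.52 and 8.54 on the L_FMG arrays, above all HFD arrays and inside the ND range of 8.40 to 8.57. Its change was 0.82 ± 0.13 (SE, n = 3; limma adjusted p = 0.087, unadjusted 5.36e-06), and it was 0.80 without L_FMG array 10. With array weights or with the HFD and L_FMG arrays fitted alone it passed (limma adjusted p = 0.00735 and 0.015). It also passed without H_FMG array 3 or 8, arrays that enter this change only through the shared spread (limma adjusted p = 0.00862 and 0.0178). Other alternatives went the other way. Snord104 did not pass without HFD array 6 or HFD array 7 (changes 0.82 and 0.77, limma adjusted p = 0.575 and 0.55). With arrays of the same replicate number blocked together it did not pass either (change 0.71, limma adjusted p = 0.9997). Snora73b was at 6.83, 7.40 and 7.88 (0.97 ± 0.31, limma adjusted p = 0.454) and Scarna2 at 7.40, 7.64 and 7.85 (0.52 ± 0.17, 0.474). The lowest L_FMG array of both lay above the highest HFD array.

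In H_FMG 49 genes had a change above 0 (83.1%, against 53.6% of all genes), the median was 0.20, and 8 genes had all arrays above HFD (background 10.7%). Without the 4 arrays of lowest SD, which leaves H_FMG array 3 as the only array of its group, the median was -0.03, a value with no spread of its own. Snord104 was at 7.90, 8.29 and 8.57 (0.57 ± 0.13, limma adjusted p = 0.117), Snora61 at 5.54, 5.70 and 6.05 (0.44 ± 0.13, 0.157) and Snora73b at 7.07, 7.42 and 7.64 (0.98 ± 0.31, 0.17). In all 3 genes array 3 was the lowest H_FMG array, as for most small nucleolar RNAs, and still lay above the HFD arrays. Without H_FMG array 3 the change of Snord104 was 0.74 and passed (limma adjusted p = 0.0294). Leaving out the lowest array of the group raises the change by construction. Without HFD array 6 or 7 the change was 0.57 and 0.52 and did not pass (limma adjusted p = 0.467 and 0.239). With array weights, 5 of the 59 genes (Snord104, Snora73b, Snora73a, Snora75 and Snord8) passed as higher, where 1.06% of all genes did so in that fit.

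The dose comparison, 0.9% minus 0.3% fermented grain, gave a median of -0.06 with 18 genes above 0 (30.5%, against 51.8% of all genes). Without L_FMG array 10 the median was 0.12 with 45 genes above 0. The smallest p-values belonged to Scarna8 (3.49, 3.46 and 3.80 in L_FMG and 3.88, 4.10 and 3.90 in H_FMG, change 0.38 ± 0.16), Snord37 (4.31, 4.18 and 4.04 against 3.62, 3.60 and 3.75, change -0.52 ± 0.27) and Snord104 (change -0.25 ± 0.13). All had a limma adjusted p of 0.998. The probes of Scarna8 and Snord37 were dim on these arrays, near or under the array medians.

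In BC 43 genes had a change above 0 (72.9%, against 52.3% of all genes) with a median of 0.07. Snord104 was at 7.94, 8.29 and 8.06, above all HFD arrays and below all ND arrays, a change of 0.41 ± 0.13 (limma adjusted p = 0.917). Snord8 and Snora73b had changes of 0.28 ± 0.15 and 0.56 ± 0.31. In RMG the median was -0.02 with 25 genes above 0 (42.4%, against 54.1% of all genes). The smallest p-values in RMG belonged to Snora2b (-0.59 ± 0.24), Snora44 (0.76 ± 0.40) and Snord53 (0.27 ± 0.15). In SMG the median was 0.01 with 33 genes above 0 (55.9%, against 51.7% of all genes). The smallest p-values in SMG belonged to Snora44 (0.91 ± 0.40), Snord53 (0.23 ± 0.15) and Snord43 (-0.26 ± 0.18). Snora44 was at 6.51, 6.37 and 6.74 in HFD, 7.63, 6.93 and 7.34 in RMG and 7.55, 6.99 and 7.80 in SMG, so neither group overlapped HFD. All arrays lay above HFD for 2 of the 59 genes in RMG and 3 in SMG, against 1032 and 772 of all 16248 genes.

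Across the 7 groups the mean level of Snord104 was highest in L_FMG (8.51 ± 0.04, SD, n = 3) and ND (8.48 ± 0.08), followed by H_FMG (8.25 ± 0.33) and BC (8.10 ± 0.17). It was lowest in SMG (7.79 ± 0.16), RMG (7.75 ± 0.17) and HFD (7.69 ± 0.09). Neighbours in this order differed by less than the SD of one or both, except between BC and SMG, whose arrays overlapped. For Snora61 ND was highest (5.99 ± 0.23) and HFD lowest (5.32 ± 0.21), with the other groups between 5.43 and 5.76.

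The genes with the brightest probes by mean level, Snora33, Snord22, Snord99, Snord49b and Snord47, did not pass in any comparison. Their group means spanned 11.52 to 11.80, 10.90 to 11.10, 10.07 to 10.39, 9.86 to 10.26 and 9.77 to 10.18. A second probe of Snora33, dimmer and not used, was at 5.22 and 5.34 on ND arrays 6 and 8 and at 8.05 on ND array 9, where the probe used was at 11.62, 11.66 and 12.11. The 2 probes of this gene thus differed in the size of the shift on that array. The 2 probes of Snora19 held identical values.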

How the data were processed

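Total RNA of epididymal fat was hybridised to Affymetrix whole-transcript arrays after Trizol extraction and biotin labelling, per the labels' protocols. The values used are the deposited log2 levels of 24291 complete probes on 21 arrays, ranging from 0.84 to 12.71. The sources used here do not give their background correction, summarisation, normalization or log base, and log2 was taken from the range. GEO's platform annotation gave 1 symbol to 17067 probes, several to 1139 and none to 6085, and symbols were updated through RefSeq GRCm38.p6 (116 probes unmatched). The brightest probe stood for each of 16248 genes.

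limma 3.58.1 in R 4.3.3 (lmFit and eBayes with an intensity trend, 1 coefficient per group, no block) was fitted to all genes, two-sided, with Benjamini-Hochberg adjustment and a threshold of 0.05. The labels number the arrays of a group but do not state that each is 1 mouse, so p-values measure the spread between these samples, which may be technical. On simulated data for HFD against ND over 16248 genes, 32.8% of changes of 0.5 and 95.5% of changes of 1 were recovered. Each of these sizes was put into 67 genes drawn from all genes, with noise independent between genes. The small nucleolar RNAs had a higher median SD within groups and shifted together, so these shares do not give what could be recovered among them. The number of arrays limits precision.

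Named genes are all that passed in a comparison, or the 3 smallest p-values where fewer than 3 passed, the 5 brightest, the 2 most variable within groups, those next to the threshold, their hosts, and up to 4 genes of each background list. The genes and lists were chosen with earlier results of these data known. Alternatives covered normalization, probe choice, dim genes, weights, trend, block, groups fitted alone and leaving out arrays. Replicate numbers did not pair arrays: residual correlations of the 18 same-number pairs were -0.30 to 0.18 (median -0.05).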

Additional observations from a re-analysis of the deposited data

Results flagged for a closer look

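Snord66 is a box C/D RNA that lies within Eif4g1. It was picked because the arrays of 2 other high-fat groups lay on opposite sides of HFD. Over all 16248 genes, 1186 had every L_FMG array above every HFD array, and 755 had every RMG array below. The levels of Snord66 were 7.86, 7.72 and 7.72 in HFD, 7.88, 7.99 and 8.76 in L_FMG and 7.62, 7.61 and 7.71 in RMG. Every L_FMG array was thus above, and every RMG array below, all HFD arrays, and the difference between the 2 changes was 0.56. This difference was not tested. The highest L_FMG value was on array 10, on which most small nucleolar RNAs were high, and the lowest L_FMG value exceeded the highest HFD value by about 0.02. The highest RMG value, 7.707, lay just under the lowest HFD value, 7.718, and the RMG change was -0.12 (limma adjusted p = 0.9998).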

How the results depend on the processing

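Changes of genes named within a comparison were refitted as 33 results, none of which changed direction: of 980 alternatives, 903 kept their direction and side of the threshold, 70 were no longer past it and 7 newly passed. Many of the alternatives left out an array of a group outside the comparison, which could not alter the change itself. Genes named for brightness or spread, and Snord52, were not among them, and the HFD minus ND change of Snora20, Snord22 and Snord47 was 0.56, 0.07 and 0.12 without ND array 9, against -0.17, -0.13 and -0.23 with it. Leaving out 1 array at a time gave 2 to 15 genes called for HFD against ND (9 with all), 3 to 14 for the 6 high-fat groups (6), 2 to 8 by F (5), and 0 to 1 in L_FMG and in H_FMG. Counts of calls in this section move with the calls over all genes, whose shares are not given in it. Medians then ranged from -0.46 to -0.07 for HFD against ND, -0.37 to 0.055 for the 6 high-fat groups, 0.06 to 0.11 in BC, -0.09 to 0.08 in RMG, -0.02 to 0.05 in SMG, 0.11 to 0.37 in L_FMG, 0.14 to 0.32 in H_FMG and -0.18 to 0.12 between doses. With the replicate block, 3 genes were called for HFD against ND and 3 for the 6 high-fat groups, and the medians were -0.31 in RMG, 0.48 in H_FMG and 0.36 between doses. The arrays share only a number, so these are given as values. HFD and ND arrays alone gave 5 calls, HFD and L_FMG alone 1. Array weights gave 1 call in L_FMG, 5 in H_FMG and 12 by F. The fit without the 4 arrays of lowest SD was chosen after seeing the data. The number of arrays and dim probes limit what could be detected.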
